A study of Mus musculus with 6 samples.

Results

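Interferon-stimulated genes are genes whose transcription rises when a cell receives an interferon signal. A list of 42 of them was followed on every array of the study, probe by probe. The members were chosen by gene name and not by any measured value. Of the 42, 34 had at least 1 probe named on the array, with 45 probes between them, out of 41006 probes and 37487 named genes or transcripts on the array. The other 8 (Mx1, Mx2, Ifih1, Ifi203, Ifi47, Tap1, Xaf1 and Parp14) had no probe that the naming used here could match, and have no values here. All 45 probes were among the 40791 probes that passed the filter on signal, and 44 of them were well above background on all 6 arrays. Of the 34 genes, 25 had 1 probe, 7 had 2 and 2, Oas3 and Trim30a, had 3. Probes of a gene are numbered from the brightest.

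The study asked which transcripts in resting mesenteric lymph nodes depend on TNF, a cytokine, when it comes from B cells or from T cells. Each of its 6 two-colour arrays held RNA of pooled nodes from 3 adult mice of 1 genotype, labelled with Cy3. Each array also held Cy5-labelled RNA of a common pool of 11 mouse cell lines. There were 3 arrays of each of 2 genotypes.

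One group was labelled B-TNF KO, male on all 3 arrays. The other was labelled TB-TNF KO double, male on arrays 1 and 3 and female on array 2. Both groups carry a TNF knockout, and nodes of wild-type mice were not analysed here, so each difference is between 2 knockouts. The driver of the deletions and the age beyond adult are not given in the sources used here. TB-TNF KO double arrays 1 and 2 differed by about as much in the sample channel as in the reference channel. The ratio of the 2 spreads was 0.951, against 1.05 to 1.57 for the 14 other pairs of arrays. They were therefore averaged and counted as 1 sample, so n was 3 against 2. The 3 Y-linked marker probes had a median of -2.35 relative to their means on TB-TNF KO double array 1, labelled male. It was -2.24 on array 2, labelled female. On the B-TNF KO arrays it was -0.18, 0.24 and 1.32, and on TB-TNF KO double array 3 it was 0.97. The list's median difference and the counts called over all probes are given with and without TB-TNF KO double arrays 1 and 2. Trim30a probes 1 and 3, Ifi204 and Iigp1 are also given by array number. Most other differences are given only with these arrays included. All B-TNF KO arrays were read by the image software on 1 day and all TB-TNF KO double arrays on another, so day and genotype cannot be told apart. Median background-subtracted sample intensity was 159 to 203 per array in B-TNF KO and 144 to 166 in TB-TNF KO double. As a check of the tissue, the B cell markers had a median log2 ratio over the reference pool of 1.52 to 1.90 per array and the T cell markers of 1.60 to 1.84.

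Type I interferons bind a receptor made of Ifnar1 and Ifnar2, whose kinases activate Stat2 among other proteins. Stat2 and Irf9 are part of a complex that binds a promoter element called the interferon-stimulated response element (ISRE). Interferon gamma acts largely through a different element, the gamma-activated site (GAS). The induced genes encode antiviral effectors, sensors of foreign nucleic acid, GTPases directed at intracellular pathogens, the machinery of MHC class I antigen processing, and proteins that limit the response. In resting lymphoid tissue many of them are expressed without infection.

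The promoters of the members hold the letters of these elements more often than promoters at large. RefSeq windows of 300 bases (250 before and 50 after the start, GRCm38.p6) were found for 31 of the 42 members. The ISRE core, spelled GAAA, any 2 bases and GAAA again, was searched on both strands and occurred in 17 of the 31 genes (54.8%), against 3.99% of all 27025 genes with a window. The GAS letters TTCNNNGAA read the same on both strands and occurred in 9 of the 31 (29.0%), against 9.55% of all genes. A match is a match of letters and shows no binding. The stretches below come from members to which the results return. They run 5′ to 3′ on the strand of the gene and end at or before the gene's start, and capitals mark 1 match of the motif.
Isg15 ISRE core: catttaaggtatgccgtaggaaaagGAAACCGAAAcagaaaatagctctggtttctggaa
Oas1a ISRE core: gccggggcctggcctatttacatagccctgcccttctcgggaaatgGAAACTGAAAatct
Bst2 ISRE core: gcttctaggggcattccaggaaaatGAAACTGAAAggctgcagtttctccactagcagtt
Ifit1 ISRE core, opposite strand: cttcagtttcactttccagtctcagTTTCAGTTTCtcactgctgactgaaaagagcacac
Trim30a ISRE core, opposite strand: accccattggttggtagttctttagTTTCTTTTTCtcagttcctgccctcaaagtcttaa
Irf8 GAS: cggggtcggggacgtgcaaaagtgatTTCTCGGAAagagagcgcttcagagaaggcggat
Psmb8 GAS: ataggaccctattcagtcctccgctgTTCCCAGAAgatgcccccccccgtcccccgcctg
These lie at chr4:156200856-156200915 (minus strand) for Isg15, chr5:120907526-120907585 (minus) for Oas1a, chr8:71537562-71537621 (minus) for Bst2 and chr19:34640779-34640838 (plus) for Ifit1. Those of Trim30a, Irf8 and Psmb8 lie at chr7:104465195-104465254 (minus), chr8:120736161-120736220 (plus) and chr17:34198072-34198131 (plus). In Isg15, Oas1a and Bst2 the marked match overlaps at least 1 further match of the same core. No match was found in the windows of Irf7, Irf9, Ifi44 or Oasl1 for the ISRE core, which says only that these letters are not in those windows.

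Most members had more signal in the node than in the cell line pool. Of the 45 probes, 28 had a log2 ratio of node over reference above 0 on all 6 arrays (62.2%, against 31.9% of all probes with values on all 6), and 19 were above 1 on all 6 (42.2%, against 3.83%). The median over probes of the mean log2 ratio was 0.80, against -0.01 for all probes. The members were also brighter, with a median log2 sample intensity of 9.29 against 7.37. Ratios of dim probes are drawn toward 0 by the offset used in background correction, and probes of like signal were not compared here. Among the highest were Irf8, a transcription factor of B cells and myeloid cells, Iigp1, an immunity-related GTPase, and the immunoproteasome subunits Psmb8 and Psmb9. Below the reference on all 6 arrays were 6 probes, the lowest being Ifi204, a DNA sensor of the HIN-200 family, and Eif2ak2, the kinase PKR. The reference pool holds a macrophage line and lymphocyte lines among others, and a ratio below 0 says only that the pool had more.

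**Figure D1:**
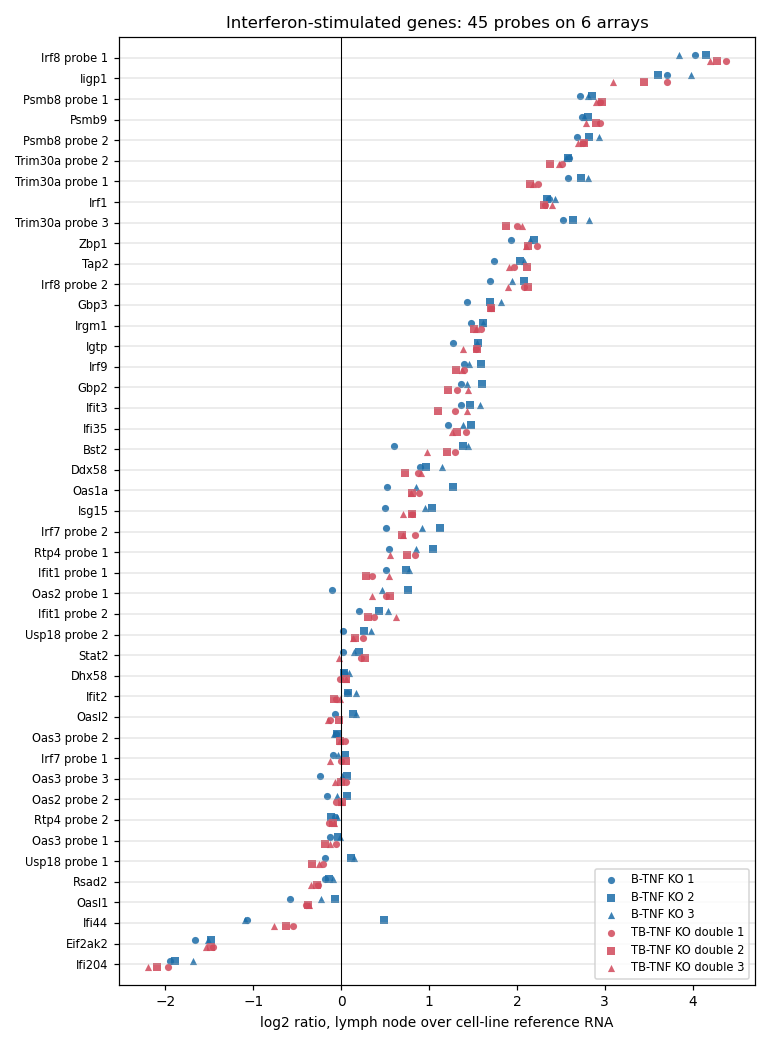
Log2 ratio of lymph node over reference RNA (x axis) for each of the 45 probes (rows, ordered by mean) on each of the 6 arrays (points; blue B-TNF KO, red TB-TNF KO double, marker shape gives the array number). Probes span about the same order in both genotypes, from Ifi204 between -2.20 and -1.68 to the brighter Irf8 probe between 3.84 and 4.38.

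Between the genotypes, no probe of the 45 passed the threshold in limma (adjusted p under 0.05 over all 40791 probes, Benjamini-Hochberg). Over all probes 6 were called lower in TB-TNF KO double (0.0147%) and 0 higher (0%). The median difference, TB-TNF KO double minus B-TNF KO, was -0.04 over the 45 probes and -0.01 over all probes, on the log2 scale. Values were lower in TB-TNF KO double for 31 of the 45 probes and higher for 14, and the share lower of 68.9% compares with 55% of all probes. At an unadjusted p under 0.05 there were 8 lower (background 11.2%) and 1 higher (background 5.02%). Over the 6 arrays the genotypes did not overlap in 10 probes, with TB-TNF KO double below in 7 (background 16.9%) and above in 3 (background 10.6%). The share of lower values and the 8 lower at an unadjusted p lie above their background, and the other counts lie near or below it. None of them is read as a result about the members.

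The list's small shift moved with single arrays. Its median was -0.13 without B-TNF KO array 1, with 40 of 45 probes lower, and 0.02 without B-TNF KO array 2, with 21 lower. It was -0.00073 over the arrays numbered 1 and 2 and -0.12 between the arrays numbered 3. In the reference channel, which held the same RNA on every array, the members' median differed by -0.08 between the groups of arrays, against -0.02 for all probes. The share of that channel in each ratio was not tested.

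**Figure D2:**
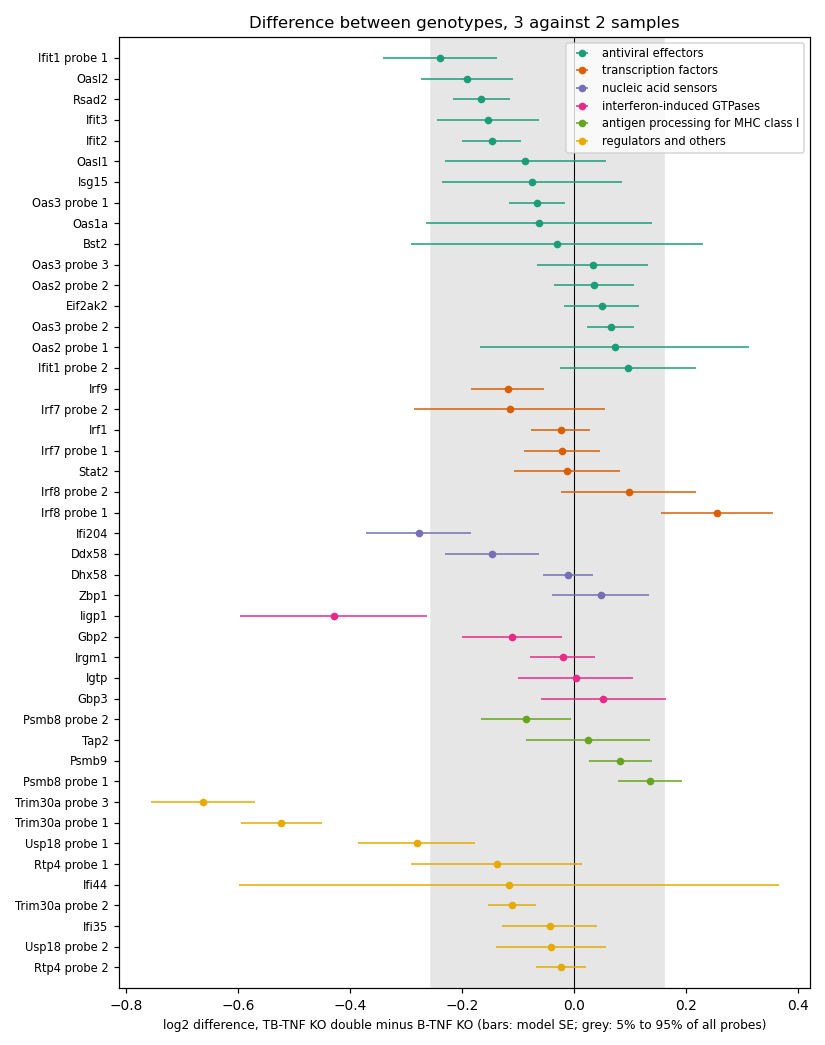
Difference between genotypes for each probe (points, log2 scale, TB-TNF KO double minus B-TNF KO, 3 against 2 samples), with the model's SE as bars, grouped by role in colour. The grey band holds the middle of all 40791 probes, from the 5% to the 95% point (-0.26 to 0.16). Outside it on the low side are 2 Trim30a probes, Iigp1, Usp18 probe 1 and Ifi204, and on the high side Irf8 probe 1.

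The largest difference in the list was at Trim30a, a tripartite-motif protein that restrains NF-kappaB signalling. Its brightest probe had log2 ratios of 2.59, 2.73 and 2.81 on the B-TNF KO arrays and 2.24, 2.15 and 2.18 on the TB-TNF KO double arrays. The dimmest gave 2.52, 2.64 and 2.82 against 2.00, 1.88 and 2.05. On both probes every TB-TNF KO double array lay below every B-TNF KO array, with a gap wider than the range within either genotype. The differences were -0.52 (SE 0.07) and -0.66 (SE 0.09), or 1.44-fold and 1.58-fold lower, each with an adjusted p of 0.056 in limma. They did not pass. Both passed with the replicate number as a block and the 6 arrays counted separately (adjusted p 0.017 and 0.012), in a fit that takes TB-TNF KO double arrays 1 and 2 as 2 samples and calls 6.21% of all probes lower and 1.81% higher. They passed too with those 6 arrays and no block (adjusted p 0.010 for each), where 4.58% of all probes were called lower and 1.46% higher. In the sample channel alone, where 0.517% of all probes were called lower, the differences were -0.46 and -0.65 (adjusted p 0.050, which missed the threshold, and 0.049), and in the reference channel -0.17 and -0.20.

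The third Trim30a probe, second in brightness, did not differ by as much. It had 2.59, 2.58 and 2.55 in B-TNF KO and 2.52, 2.37 and 2.48 in TB-TNF KO double. The genotypes again did not overlap, but the difference was -0.11 (SE 0.04, adjusted p 0.28). The probes with the larger difference are not independent of each other. They share 30 bases, which are bases 1 to 30 of the brightest probe and 31 to 60 of the dimmest, while the middle probe shares no stretch over 7 bases with either. The shared stretch, in lower case throughout because it holds no marked motif, is:
Trim30a shared probe stretch: gatactgtatctgttaagttttttctaccc
The larger differences thus come from overlapping sequence and the smaller from elsewhere. Whether related Trim30 genes bind these probes was not tested. Between the arrays numbered 3 alone the overlapping probes differed by -0.63 and -0.77, and over the arrays numbered 1 and 2 by -0.46 and -0.64, so the direction and most of the size were present without TB-TNF KO double arrays 1 and 2.

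**Figure D3:**
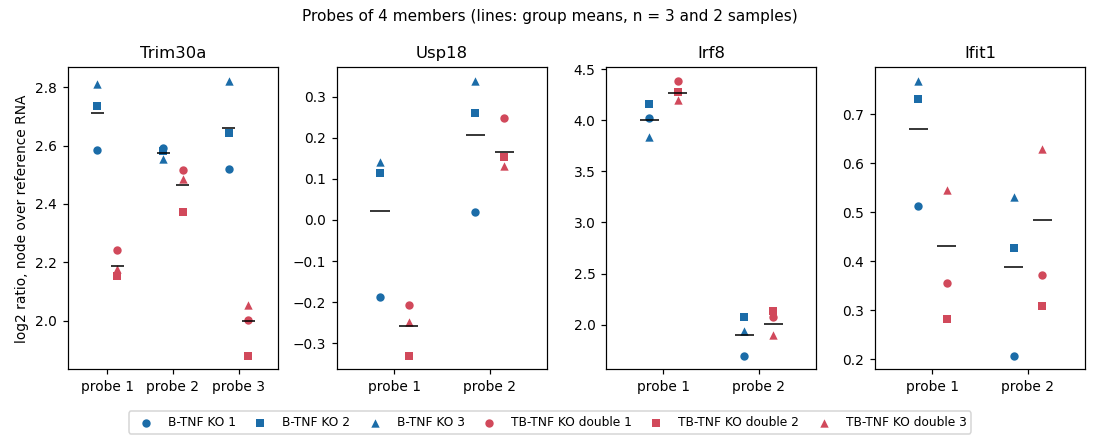
Log2 ratio of node over reference (y axis, a separate scale in each panel) for every probe of Trim30a, Usp18, Irf8 and Ifit1, with 3 arrays per genotype and a line at each group mean. Trim30a probes 1 and 3 separate the genotypes by more than probe 2, and for Usp18, Irf8 and Ifit1 the difference of one probe is not matched in size by the other.

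The remaining regulators had small differences. All 9 probes of this role were lower (background 55%), but they came from 5 genes and include the 3 probes of Trim30a. Usp18, the protease that removes Isg15 from proteins and blocks the interferon receptor, had -0.19, 0.12 and 0.14 against -0.21, -0.33 and -0.25 on its brighter probe. The genotypes did not overlap there, though B-TNF KO array 1 lay close to the TB-TNF KO double arrays (difference -0.28, SE 0.10, adjusted p 0.27). Its dimmer probe overlapped and differed by -0.04. Ifi35, a binding partner of the Nmi protein, had 1.22, 1.48 and 1.39 against 1.42, 1.32 and 1.27. These overlapped, with a difference of -0.04. Ifi44 differed by -0.12 (SE 0.48) and Rtp4, a receptor transporter protein, by -0.14 on its brighter and -0.02 on its dimmer probe.

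Among the antiviral effectors, 10 of 16 probes were lower and 6 higher, with a median difference of -0.06. Ifit1, which binds foreign RNA caps, had 0.51, 0.73 and 0.77 in B-TNF KO and 0.36, 0.28 and 0.55 in TB-TNF KO double on its brighter probe. The highest TB-TNF KO double array lay above the lowest B-TNF KO array, and the difference was -0.24 (SE 0.10, adjusted p 0.33). Its dimmer probe differed the other way, by 0.10. Of the bases of the brighter probe 35% are G or C, against 61.7% of the dimmer. Oasl2, a 2′-5′-oligoadenylate synthetase-like protein, had -0.07, 0.13 and 0.17 against -0.13, -0.02 and -0.15. The groups overlapped at B-TNF KO array 1, with a difference of -0.19 (SE 0.08, adjusted p 0.33).

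Ifit2 and Rsad2 were the effector probes with TB-TNF KO double wholly below. Ifit2 had 0.07, 0.08 and 0.17 against -0.06, -0.08 and -0.01, and Rsad2, the radical-SAM enzyme viperin, had -0.18, -0.14 and -0.09 against -0.26, -0.27 and -0.34. Both had narrow ranges in each genotype and differences of -0.15 (SE 0.05, adjusted p 0.25) and -0.17 (SE 0.05, adjusted p 0.19). For Rsad2 this was the lowest adjusted p of any member other than Trim30a. Oas3 probe 2 was the effector probe with TB-TNF KO double wholly above, at 0.04, -0.01 and -0.01 against -0.06, -0.05 and -0.09. That difference was 0.07 (SE 0.04, adjusted p 0.52), and the other Oas3 probes differed by -0.07 and 0.03.

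Of the other effectors, Bst2, the membrane tether also called tetherin, had the smallest difference of the role on a brightest probe, at -0.03 (SE 0.26). The ubiquitin-like modifier Isg15 differed by -0.07 and Ifit3 by -0.15. The RNA-activated synthetase genes Oas1a and Oas2 differed by -0.06 and 0.07, their relative Oasl1 by -0.09 and Eif2ak2 by 0.05. None of these passed, and in none did the genotypes separate.

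The transcription factors split by gene. Irf8 had 4.02, 4.16 and 3.84 in B-TNF KO and 4.38, 4.28 and 4.20 in TB-TNF KO double on its brighter probe. Every TB-TNF KO double array lay above, by 0.26 on average (SE 0.10, adjusted p 0.29). This was the only member probe higher at an unadjusted p under 0.05. Its dimmer probe overlapped and differed by 0.10 (SE 0.12), and with each array centred on its median in place of loess the brighter probe differed by 0.09. Irf9, the DNA-binding part of the type I complex, had 1.40, 1.59 and 1.46 against 1.40, 1.31 and 1.37, touching at the first array of each genotype (difference -0.12, SE 0.07). Its partner Stat2 had 0.02, 0.21 and 0.14 against 0.22, 0.27 and -0.02, which overlapped throughout and differed by -0.01. Irf1 and Irf7, which drive further interferon-induced transcription, differed by -0.02 each on their brightest probes.

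Of the nucleic acid sensors, Ifi204 separated the genotypes. It had -1.94, -1.89 and -1.68 in B-TNF KO and -1.97, -2.09 and -2.20 in TB-TNF KO double. The lowest B-TNF KO array and the highest TB-TNF KO double array, both numbered 1, lay close together, and the difference was -0.28 (SE 0.09, adjusted p 0.23). It was -0.52 between the arrays numbered 3 and -0.12 over those numbered 1 and 2. Ddx58, the RNA sensor RIG-I, had 0.89, 0.97 and 1.14 against 0.87, 0.73 and 0.91. These overlapped slightly, with a difference of -0.15 (SE 0.08). Dhx58, its relative LGP2, had 0.03, 0.03 and 0.08 against -0.02, 0.06 and 0.06 and differed by -0.01. The Dhx58 probe was dim, with sample intensities of 16.7 to 31.7, so its ratios are drawn toward 0 by the offset. Zbp1, a sensor of Z-form nucleic acid, differed by 0.05.

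Iigp1 had the largest difference of the interferon-induced GTPases, and it came mainly from the arrays numbered 3. Its log2 ratios were 3.71, 3.61 and 3.98 in B-TNF KO and 3.71, 3.45 and 3.10 in TB-TNF KO double. Array 1 of both genotypes had the same value to 2 decimals. The groups overlapped, since TB-TNF KO double array 1 lay above B-TNF KO array 2. The difference was -0.43 (SE 0.17, adjusted p 0.29), made up of -0.88 between the arrays numbered 3 and -0.08 over those numbered 1 and 2. Gbp2, a guanylate-binding protein, had 1.37, 1.61 and 1.43 against 1.32, 1.22 and 1.44 and differed by -0.11. Igtp, the GTPase Irgm3, had 1.27, 1.56 and 1.55 against 1.53, 1.54 and 1.39. Its difference of 0.0033 was the smallest of the role, and B-TNF KO array 1 was its lowest array. Gbp3 and Irgm1 differed by 0.05 and -0.02.

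Genes of MHC class I antigen processing had 3 of 4 probes higher in TB-TNF KO double. Psmb8, an inducible proteasome subunit, had 2.71, 2.85 and 2.81 against 2.95, 2.97 and 2.90 on its brighter probe. All 3 TB-TNF KO double arrays lay above, with a difference of 0.14 (SE 0.06, adjusted p 0.33). Its dimmer probe differed by -0.09, and with median centring the brighter probe turned to -0.03. Psmb9, the subunit that works beside it, had 2.75, 2.81 and 2.76 against 2.94, 2.90 and 2.79. Only the third TB-TNF KO double array reached into the B-TNF KO range, and the difference of 0.08 (SE 0.06) likewise turned, to -0.05, in 1 of 23 alternative settings. Tap2, part of the peptide transporter, had 1.74, 2.03 and 2.08 against 1.97, 2.11 and 1.91 and differed by 0.03.

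The members varied more between the 3 B-TNF KO arrays than other probes did. Their median SD there was 0.133 on the log2 scale, against 0.0607 for all probes and 0.0644 for probes of other genes in the middle range of the members' sample signal. The range over the B-TNF KO arrays exceeded the size of the difference between genotypes in 36 of the 45 probes (80%, against 71.8% of all probes). It was over 0.5 in 8 probes (17.8%, against 2.08%). These 8 probes, of Ifi44, Oas2, Bst2, Oas1a, Irf7, Isg15, Oasl1 and Rtp4, were singled out after their values were seen. All these are descriptions of 3 arrays, with no test.

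**Figure D4:**
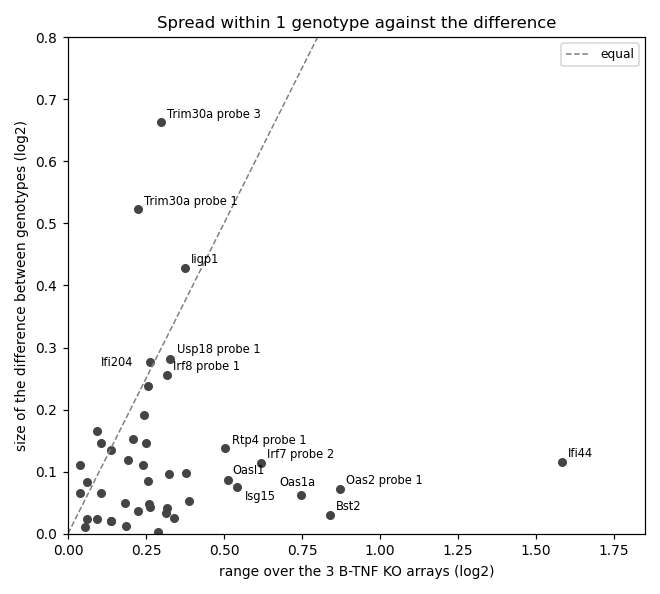
Range over the 3 B-TNF KO arrays (x axis, log2) against the size of the difference between genotypes (y axis, log2) for the 45 probes (points), with a dashed line where both are equal. Of the 45, 36 lie right of the line; Ifi44 is farthest right at 1.58, and 2 Trim30a probes are highest at 0.52 and 0.66.

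This variation had a shared direction. B-TNF KO array 2 was above array 1 in 41 of the 45 probes (91.1%, against 52.6% of all probes), by a median of 0.19. B-TNF KO array 1 was the lowest of the 6 arrays in 22 probes (48.9%, against 20.3% of all probes and 22.2% of those with like signal). B-TNF KO array 3 was the highest in 20 (44.4%, against 24.5% of all probes and 30.7% of those with like signal). Relative to each probe's mean over the 5 samples, the members' median was -0.10, 0.08 and 0.07 on the B-TNF KO arrays and 0.03, -0.02 and -0.05 on the TB-TNF KO double arrays.

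Ifi44 had the widest spread, with -1.07, 0.49 and -1.09 in B-TNF KO and -0.55, -0.62 and -0.76 in TB-TNF KO double. A single array, B-TNF KO 2, stood above the other 5, with a background-subtracted sample intensity of 1533 against 553 to 666. Bst2 and Isg15 showed another shape. Bst2 had 0.60, 1.39 and 1.44 against 1.30, 1.21 and 0.98, and Isg15 had 0.50, 1.04 and 0.95 against 0.81, 0.80 and 0.70. In both, B-TNF KO array 1 was the lowest of all and the TB-TNF KO double arrays lay between it and the other B-TNF KO arrays. In Oas1a and Oas2 probe 1, B-TNF KO array 1 was again the lowest and array 2 the highest: Oas1a had 0.53, 1.27 and 0.85 and Oas2 probe 1 had -0.11, 0.77 and 0.46. Their TB-TNF KO double values, 0.89, 0.81 and 0.80 for Oas1a and 0.51, 0.56 and 0.36 for Oas2, lay between those arrays and on both sides of B-TNF KO array 3. Irf7 probe 2 had the same lowest and highest arrays, with 0.51, 1.13 and 0.92 against 0.84, 0.69 and 0.71, as did Rtp4 probe 1 with 0.54, 1.05 and 0.85 against 0.84, 0.75 and 0.56. Oasl1 had -0.58, -0.07 and -0.23 against -0.39, -0.38 and -0.37, with the TB-TNF KO double arrays close together.

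**Figure D5:**
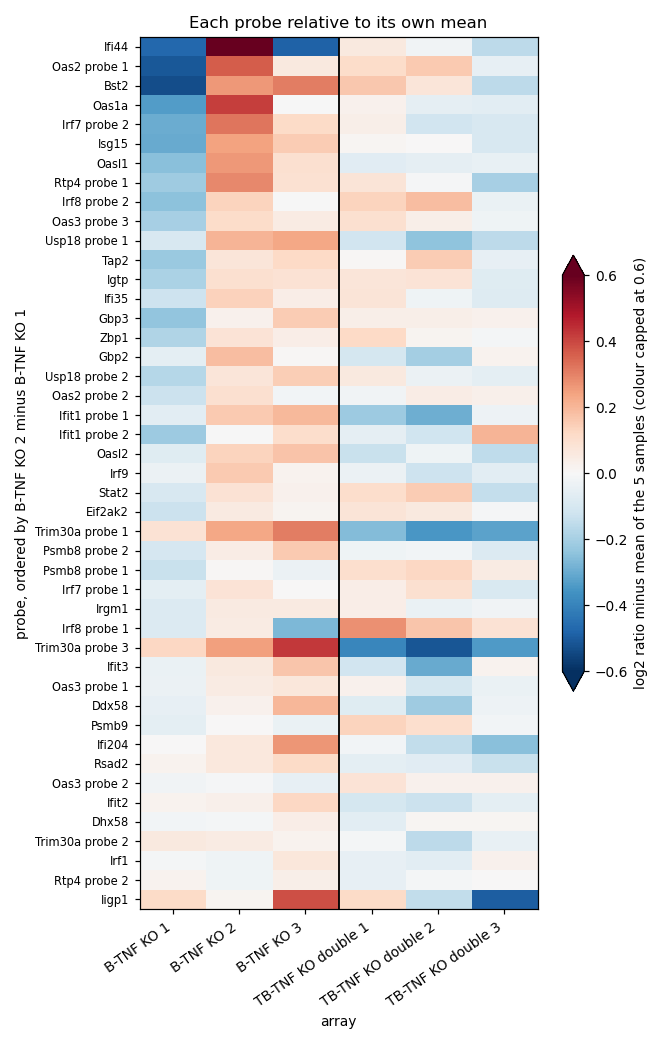
Each probe's log2 ratio minus its mean over the 5 samples (colour, capped at 0.6 in either direction), with arrays in columns and the 45 probes in rows ordered by B-TNF KO array 2 minus array 1. The left column is mostly blue (8 of 45 probes above their mean) and the 2 next to it mostly red (40 and 37 of 45), while Trim30a probes 1 and 3 change colour at the line between the genotypes.

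This variation was of like size in members with and without the ISRE letters. The median of B-TNF KO array 2 minus array 1 was 0.18 over the 20 probes of 15 members with the core in their window and 0.17 over the 14 probes of 11 members without it. The difference between genotypes had a median of -0.06 in each. A window without the letters may belong to a gene with the element elsewhere, so whether the variation depends on the element was not tested.

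Markers of cell types, including those known for making or answering interferon, were read beside this variation. The plasmacytoid dendritic cell list, of which 6 of 9 genes were measured, had medians relative to their means of -0.01, 0.04 and 0.08 in B-TNF KO and -0.06, -0.11 and 0.03 in TB-TNF KO double. Its summed sample signal was 21743 on B-TNF KO array 2 and 22297 and 23057 on TB-TNF KO double arrays 1 and 2, and 16069 to 16299 on the other 3 arrays. The macrophage and monocyte list, with 10 of 14 genes measured, had medians of 0.0027, 0.12 and -0.03 against 0.03, -0.0013 and -0.10, with sums of 149288 to 165329 and 131544 to 152142. Probes of both lists had passed the filter on signal, so none could be below background on every array. The T cell list had medians of -0.04, 0.11 and 0.09 against -0.05, -0.03 and -0.05. Within B-TNF KO it was low on array 1 and high on arrays 2 and 3, as the members were. The B cell list had -0.03, 0.03 and 0.10 against -0.12, -0.16 and 0.07. The NK cell list had 0.04, 0.02 and 0.05 against -0.03, -0.10 and 0.01. For neutrophils the medians were -0.00042, -0.16 and 0.09 against 0.08, 0.03 and 0.06. In nodes taken as a whole, fewer cells of a type and less RNA per cell cannot be told apart. Exocrine pancreas transcripts, from tissue beside these nodes, had median log2 ratios of 2.88, 4.07 and 0.01 against 4.42, 4.44 and -0.0021, so they were high on the arrays numbered 1 and 2 of both genotypes. Klk1, a kallikrein gene in the plasmacytoid dendritic cell list, had log2 ratios of 4.82, 5.68 and 4.23 against 5.77, 5.70 and 3.14, lowest on the arrays numbered 3 as well. No other probe of that list had its highest ratios on the same arrays as the list's summed signal. That sum is therefore not read as a measure of these cells. The part of any of these in the members' values was not tested.

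Over all probes, probe composition moved with the differences. The 9 member probes of at most 35% G and C had a median difference of -0.24, where all such probes had -0.06, and the 3 above 55% had -0.01, where all such probes had 0.02. In the bins between, the members' medians were -0.11, -0.09, 0.01 and -0.04 with rising G and C, so theirs did not rise steadily. The lowest bin holds Trim30a probes 1 and 3 and also Irf8 probe 1, which differed by 0.26. Corrected for the trend over all probes, the members' median moved from -0.04 to -0.06, and Trim30a probes 1 and 3 differed by -0.49 and -0.63.

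Of 43 further genes of the interferon pathway with a probe, none passed with TB-TNF KO double arrays 1 and 2 averaged. Their 51 probes held 27 lower and 24 higher values with a median difference of -0.0039, with 6 lower (background 11.2%) and 1 higher (background 5.02%) at an unadjusted p under 0.05. The genotypes separated in 13 probes, with TB-TNF KO double below in 11 (background 16.9%) and above in 2 (background 10.6%). Of the interferon genes themselves, Ifnb1 differed by 9.3e-05 (SE 0.05) and Ifng by 0.03 (SE 0.06). Of 17 ligand probes, 1 each of Ifna2 (-0.10), Ifna11 (-0.08) and Ifna13 (0.08) separated, in closely related genes whose probes may not tell them apart. The Ifna11 probe was well above background on only 3 arrays, with sample intensities of -1.1 to 16. Of the receptors and kinases, Ifngr1, a chain of the interferon gamma receptor, had 2.63, 2.64 and 2.70 against 2.38, 2.30 and 2.54, with TB-TNF KO double wholly below (difference -0.22, SE 0.07, adjusted p 0.20). The kinase gene Tyk2 had 1.39, 1.53 and 1.52 against 1.35, 1.32 and 1.29, also wholly below (difference -0.17, SE 0.06, adjusted p 0.24), while Ifnar1 and Ifnar2 overlapped at 0.19 and -0.10.

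Upstream of interferon, Tlr7, the endosomal receptor for single-stranded RNA, came closest to the threshold. It had 2.27, 2.33 and 2.27 against 2.03, 1.89 and 2.08, wholly below, with a difference of -0.27 (SE 0.05, adjusted p 0.090). Irf2, an antagonist of Irf1, had 1.72, 1.26 and 1.44 against 1.11, 0.87 and 1.24 on its brighter probe, a narrow separation (difference -0.36, SE 0.14, adjusted p 0.30). Its other probe differed by -0.02, and the probes of the kinase gene Ikbke differed by -0.14 and 0.02. Among negative regulators, Socs3 had 0.06, 0.09 and 0.11 against -0.15, -0.20 and -0.06 (difference -0.20, SE 0.05, adjusted p 0.13). The phosphatase gene Ptpn2 had -0.43, -0.43 and -0.29 against -0.57, -0.68 and -0.55 on its brighter probe (difference -0.21, SE 0.06, adjusted p 0.18). Its dimmer probe differed by -0.14 and the dNTP hydrolase gene Samhd1 differed by -0.16, each with the genotypes apart. Ptpn11, encoding the phosphatase Shp2, lay above, with 0.01, 0.30 and 0.08 against 0.49, 0.47 and 0.53 (difference 0.37, SE 0.09, adjusted p 0.12), and its dimmer probe overlapped at 0.07. Socs1 differed by 0.13, with overlap. With the 6 arrays counted separately, Tlr7 (adjusted p 0.033) and Socs3 (0.039) passed as lower and Ptpn11 probe 1 (0.036) as higher. With the replicate number as a block as well these passed again (0.049, 0.042 and 0.040), and Ifngr1 (0.040), Irf2 probe 1 (0.043) and Ptpn2 probe 1 (0.044) passed as lower. Both fits take TB-TNF KO double arrays 1 and 2 as 2 samples and call the shares of all probes given for Trim30a.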

How the data were processed

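Mesenteric lymph node RNA was hybridised with Cy5-labelled reference RNA on 6 Agilent arrays, per the labels. The authors extracted spot intensity with Agilent Feature Extraction 7.5.1, per the file headers. They deposited mean and background intensity for both channels, a log10 ratio of reference over sample, and a series table of log10 values. No genome build or aligner applies to these values.

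Here intensities were background corrected (limma 3.58.1 in R 4.3.3, normexp, offset 50) and normalised by loess within arrays, with control spots at weight 0 and 228 outlier spots left out. Log2 ratios are sample over reference, so their direction is the opposite of the deposited log10 ratio. Of 41034 spots, 15303 carried a symbol through RefSeq and 25731 did not. Spots of a probe were averaged. Probes were kept when well above background on at least 3 arrays. Groups were compared with lmFit and eBayes over all kept probes, with Benjamini-Hochberg adjusted p under 0.05. The planned design used 6 arrays; TB-TNF KO double arrays 1 and 2 were then averaged, as given above. The other pools were taken as separate by their labels alone. The p-values measure the spread between the samples so counted, 3 against 2 in the main fit. With so few arrays the precision is limited.

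The members, gene lists and naming rule were chosen with earlier results of these data known. Every member with a probe was named. Array values were given for members whose genotypes did not overlap, for genes with an unadjusted p under 0.05, and for the members with the 2 largest and the smallest differences of each role. Of the other pathway genes, those with an unadjusted p under 0.05 or genotypes apart were named. Ifnb1, Ifng, Ifnar1, Ifnar2 and Socs1 were named besides, the rest were only counted, and 1 is not reported here. The 8 widest probes within B-TNF KO were added after their values were seen. Same-numbered arrays of the genotypes deviated together for numbers 2 and 3 (correlations across probes of 0.53 and 0.62) but hardly for number 1 (0.13). The replicate number was tried as a block. Arrays of different numbers correlated between -0.57 and 0.43, the highest being B-TNF KO array 2 with TB-TNF KO double array 1. Alternatives covered background, normalisation, each channel, the authors' values, filters, probe handling, weights, GC content and arrays left out. The fit was tested on simulated data. Promoter windows are RefSeq's. Figures used matplotlib 3.10.9 in Python 3.11.15.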

Additional observations from a re-analysis of the deposited data

How the results depend on the processing

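The members' median difference of -0.04 lay between -0.08 and -0.04 with the alternatives that kept all arrays, but ranged from -0.13 to 0.02 with 1 array left out. It was -0.08 when TB-TNF KO double arrays 1 and 2 were left out for their low Y-linked signal, -0.00073 with the arrays numbered 1 and 2 only and -0.12 with those numbered 3 only (these 3 settings were added after seeing the data, and the last has no test). Of the member probes, the count called lower rose from 0 to 1 with the sample channel alone (Trim30a probe 3) and to 2 with the 6 arrays counted separately, with array weights, or with the replicate block (Trim30a probes 1 and 3), while 0 were called higher in each. The replicate block changed no other member's call. In 110 of 1069 pairs of a member probe and an alternative the sign turned or the value moved by more than the spread. The main fit called no member probe, so none of these could be a called difference.

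Over all probes, the count called lower was 6. It was 0 without background subtraction, 1 with the authors' deposited log ratio, 0 with the authors' series table, 0 with the reference channel alone and 2 when the probes of each gene were averaged. It was 0 when TB-TNF KO double arrays 1 and 2 were left out and 0 with the arrays numbered 1 and 2 only, which hold fewer samples, and 0 to 5 with 1 array left out. It was 211 with the sample channel alone (193 higher), 1868 with the 6 arrays counted separately (597 higher), 311 with array weights (97 higher) and 2535 with the replicate block (738 higher), against 0 higher in the main fit. The cause of these changes was not tested, beyond the extra sample that the 6 arrays and the block fit count.

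Oas2 probe 2 was the member probe that was not well above background on all 6 arrays, with background-subtracted sample intensities of 9.9 to 26.6. Low signal is a limit for Dhx58 too, at 16.7 to 31.7, and for Oas3 probe 3, at 33.7 to 67.8. Ratios of such dim probes are drawn toward 0 by the offset used in background correction. Their small differences therefore do not show that these transcripts were alike in the genotypes.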

Other observations

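Ifna9, an interferon alpha gene, was the interferon gene that varied most between arrays, and it was singled out after its values were seen. Its brighter probe had log2 ratios of 0.07, 0.55 and -0.18 in B-TNF KO and 0.82, 0.86 and -0.28 in TB-TNF KO double. Its other probe had 0.12, 0.37 and -0.29 against 0.85, 0.71 and -0.31. Both probes were lowest on the arrays numbered 3 and highest on TB-TNF KO double arrays 1 and 2, the order seen in the exocrine pancreas transcripts. The differences between genotypes were 0.13 (SE 0.36) and 0.17 (SE 0.34). The other interferon alpha probes and Ifnb1 did not show this order. Whether other transcripts bind the Ifna9 probes was not tested.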
